A study of Caenorhabditis elegans with 3 samples.

Results

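The 7 genes described here encode basic helix-loop-helix (bHLH) transcription factors of Caenorhabditis elegans: mdl-1, mxl-1, mml-1, mxl-2 and mxl-3 of the Mad, Max and Mlx network, with hlh-30 and hlh-11. They were taken by name from 19973 nuclear protein-coding genes, and they were chosen by a mixture of family and measured values, since the number and signal of their EGL-27 peaks were known. The peaks in their regions are therefore given as a description, with no test. The series has 3 biological replicates of 1 group, whole L1 larvae of both sexes from strain OP177. All carry the mutation unc-119(ed3) and the transgene insertion wgIs177, which expresses EGL-27 tagged with GFP. The label of replicate 3 describes the fusion as a C-terminal GFP-FLAG tag, and the sources used here do not give the promoter that drives the transgene. Worms of replicates 1 and 2 were obtained from the CGC, with fragments labelled as 150 to 350 bp, while those of replicate 3 were the submitting laboratory's own and were sonicated with a microtip. Peaks are from whole worms, so the cells that a peak comes from cannot be told apart.

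Proteins of this network bind DNA as dimers through the bHLH domain, most of them at E-boxes with the core CACGTG. MDL-1 is the worm relative of the Mad repressors, and MXL-1 is its Max-like partner. MML-1 is related to the glucose-responsive Mondo proteins, and MXL-2 is its Mlx-like partner. In C. elegans, MXL-3 represses lysosomal lipase genes in fed worms, whereas HLH-30, the relative of mammalian TFEB, activates autophagy and lysosome genes on fasting. HLH-11 is the relative of mammalian AP-4, which binds E-boxes with the core CAGCTG. EGL-27, the factor immunoprecipitated here, is a relative of the MTA subunits of nucleosome remodelling and deacetylase complexes.

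Peaks were counted for a gene when their summit, the position of highest signal, lay between 10000 bp upstream of its outermost 5′ end and its 3′ end. The span was stopped at the next protein-coding gene. The authors' list thresholded by the irreproducible discovery rate (IDR) holds 705 peaks called on the pooled replicates, and 14 of them (1.99%) lay in these regions. They were spread over 5 of the 7 genes, where 3.86% of all nuclear protein-coding genes have such a summit. There were 5 summits at mdl-1, 4 at mxl-3, 2 at hlh-11, 2 at hlh-30 and 1 at mml-1. At least 2 were found for 0.330% of all genes, and for 1.68% of those with regions of at least 10000 bp. The regions of mxl-1 and mxl-2 held none. Because these genes were chosen for their peaks, the distance between 5 of 7 and the background is not a result. Region length differed widely among them, at 25491 bp for hlh-30, between 10059 and 11166 bp for mdl-1, mxl-3 and hlh-11, 7721 bp for mml-1, 1889 bp for mxl-2 and 1200 bp for mxl-1. All 4 genes with at least 10000 bp had an IDR summit, and 9.78% of all genes with regions of that length did. The corresponding share for regions of 1000 to 2000 bp, which is the range of mxl-1 and mxl-2, was 1.75%.

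**Figure D1:**
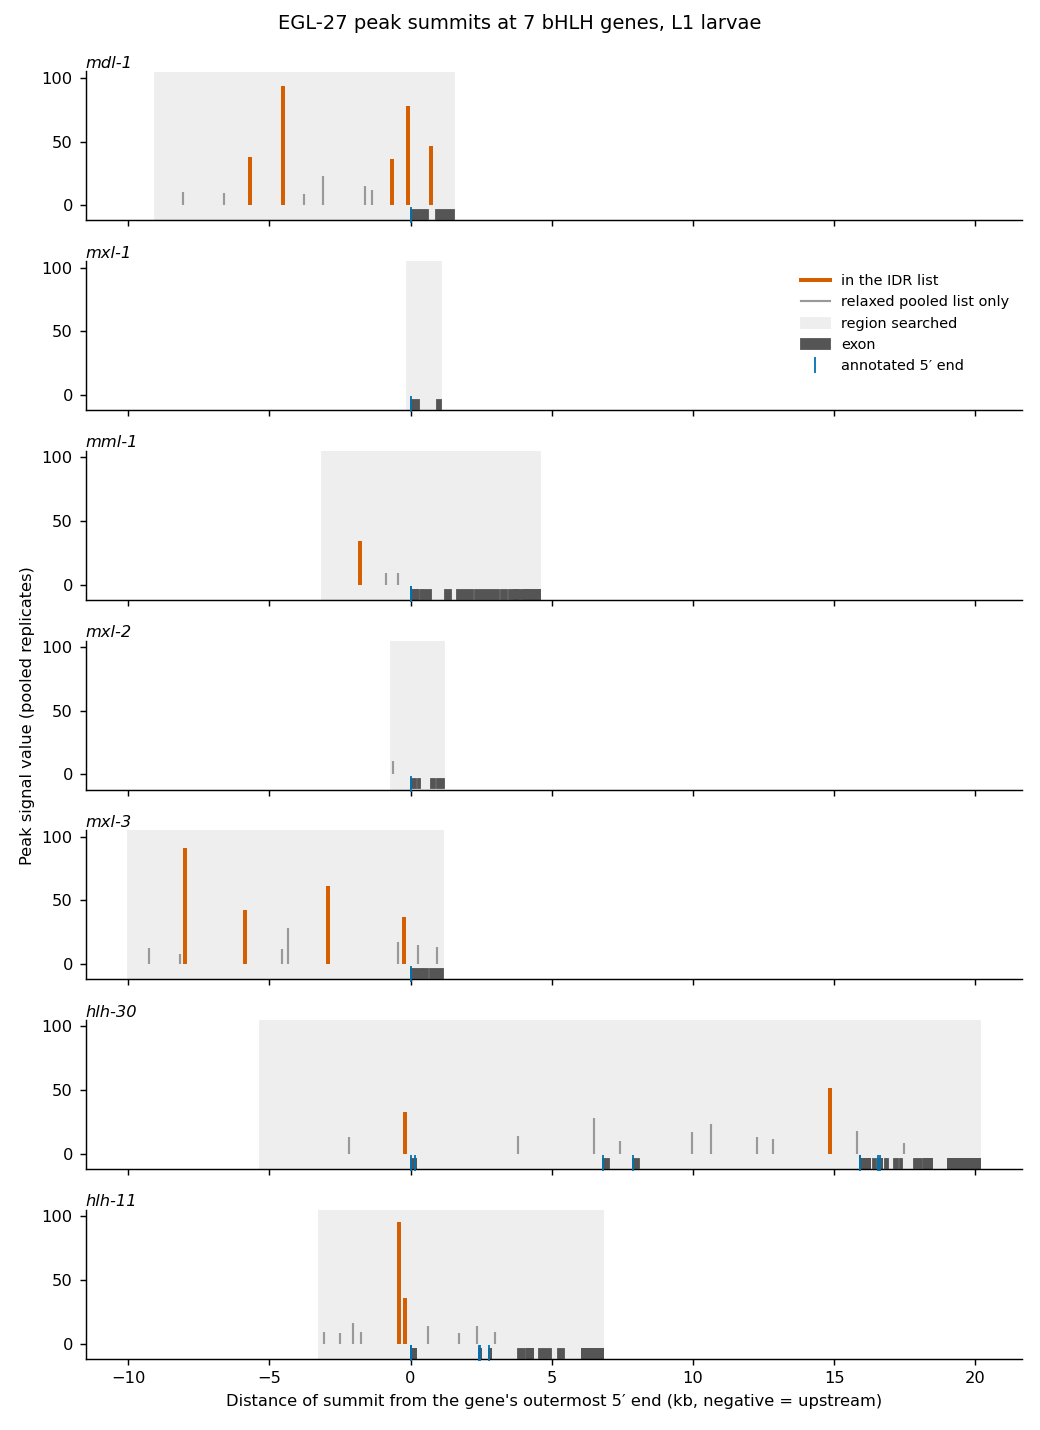
EGL-27 peak summits at the 7 genes, by distance from the outermost 5′ end in kb (x axis) and by the signal value of the pooled replicates (y axis). Orange lines are peaks in the IDR list, grey lines are peaks of the relaxed pooled list only, shading is the region searched, dark boxes are exons and blue ticks annotated 5′ ends; mdl-1 and mxl-3 each carry at least 4 orange lines, and mxl-1 and mxl-2 carry none.

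Under the 10000 bp upstream limit, the number of summits at mdl-1 and mxl-3 was reached by few genes. A 2000 bp limit would leave out the mdl-1 summits at 4527 and 5684 bp and the mxl-3 summits at 2922, 5850 and 7968 bp. A stop at any annotated gene other than piRNA genes, in place of protein-coding genes only, left 9 of the 14 summits. How many of those were at mdl-1 and mxl-3 is not given here. Genes with at least 4 summits were not counted under either of these rules. At least 4 IDR summits lay in the regions of 8 genes (0.0401% of all, and 0.279% of those with regions of at least 10000 bp), and at least 5 in the regions of 3 genes (0.0150%). The Mad gene mdl-1 was among those 3, and the Max-like gene mxl-3 among the 8. Both genes lie on chromosome X, which carried 9 of the 14 summits, against 169 of all 704 nuclear IDR peaks (24.0%). Their peaks were separate along the DNA. At mdl-1 neighbouring summits were 575 to 3857 bp apart over a span of 6409 bp, and at mxl-3 they were 2118 to 2928 bp apart over 7747 bp. In the 7 regions together there were 20.6 IDR summits per 100 kb, compared with 0.702 per 100 kb of nuclear genome, a density that the choice of the genes sets in large part.

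**Figure D2:**
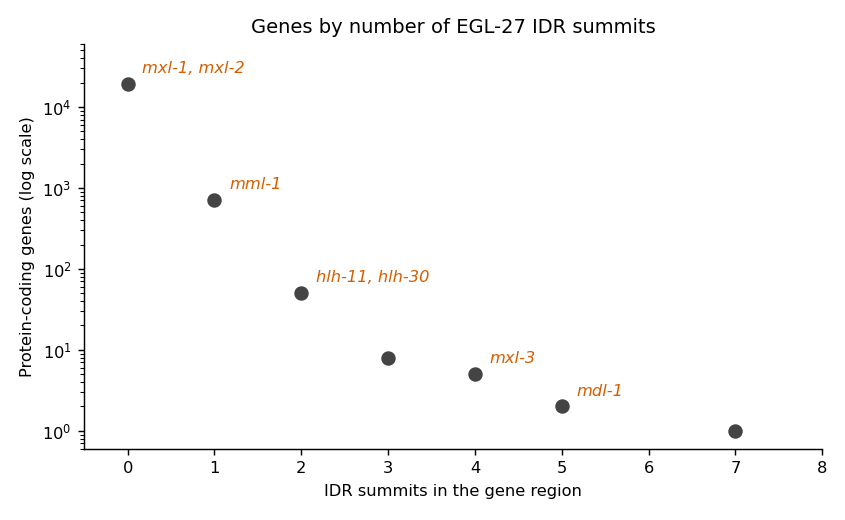
Number of protein-coding genes (y axis, log scale) by the number of IDR summits in their region (x axis). Points are counts of genes and orange names mark the 7 bHLH genes; mdl-1 lies at 5 summits and mxl-3 at 4, while 19203 genes, mxl-1 and mxl-2 among them, lie at 0.

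The peaks of mdl-1 (WBGene00003163, plus strand of chromosome X, 6742351 to 6743899) lay on both sides of its 5′ end. The highest was 4527 bp upstream, with a pooled signal of 93.4 and rank 43 of the 705. Replicates 1, 2 and 3 gave it signals of 29.3, 24.5 and 45.7, at ranks 15, 138 and 60 of their own lists. Signals are scaled within a list, so only the ranks and not the heights can be set beside each other, and all 3 ranks were within the strongest 138 peaks. The next peak was 95 bp upstream, at the promoter itself, with a pooled signal of 78.0 and rank 70. Its replicate signals were 8.8, 25.7 and 44.1, at ranks 456, 118 and 67, so it stood lower in replicate 1 than in the other replicates. This peak was 101 bp wide in the IDR list, in which 691 of the peaks were 390 bp wide.

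The other 3 summits of mdl-1 were weaker. One lay in an intron, 725 bp downstream of the 5′ end (pooled signal 46.5, rank 293). It had replicate signals of 5.1, 17.6 and 23.0 at ranks 2295, 345 and 344. Replicate 1 was thus the low one here as well. Another lay 5684 bp upstream (37.9, rank 487), with replicate signals of 11.9, 19.2 and 17.1 at ranks 211, 263 and 661. The last lay 670 bp upstream (36.6, rank 522), with signals of 5.8 in replicate 1 and 18.4 in replicate 3 at ranks 1516 and 573. No peak of replicate 2 held this summit. The 4 upstream summits also lie in the region of R03E9.2, a gene of the opposite strand at the other end of the same intergenic stretch. The strongest of them was 4523 bp from the 5′ end of R03E9.2, nearly the same as its distance from mdl-1, and the one at 5684 bp was 3366 bp from it. A further IDR summit (signal 63.7) lay 128 bp beyond the 3′ end of mdl-1 and so outside the region.

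The sequences at the summits nearest to the mdl-1 5′ end are shown because both hold the E-box core within 50 bp of the summit, and that of the strongest summit because it does not. They are written 5′ to 3′ on the strand of the gene from the WBcel235 (ce11) genome, 101 bases centred on the summit, and capitals mark CACGTG and GAGAGA or its reverse complement.
mdl-1, 95 bp upstream, chrX:6742206-6742306, plus strand: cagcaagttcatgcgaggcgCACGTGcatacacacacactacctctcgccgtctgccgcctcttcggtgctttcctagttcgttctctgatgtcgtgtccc
mdl-1, 670 bp upstream, chrX:6741631-6741731, plus strand: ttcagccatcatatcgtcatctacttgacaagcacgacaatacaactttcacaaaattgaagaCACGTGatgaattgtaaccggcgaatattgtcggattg
mdl-1, 4527 bp upstream, chrX:6737774-6737874, plus strand: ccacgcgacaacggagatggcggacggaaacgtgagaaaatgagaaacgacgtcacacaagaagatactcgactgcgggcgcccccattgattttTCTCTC

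The partner gene mxl-1 (WBGene00003509, plus strand of chromosome V, 11244839 to 11245926) had no summit in its region in any of the 5 lists, the 3 relaxed replicate lists and the relaxed pooled list included. The region is short, since the gene pgap-1 ends 112 bp upstream of the 5′ end of mxl-1. Among all genes with regions of 1000 to 2000 bp, 34.1% had no summit in any list, so an empty region of this length is common. The nearest IDR summit was 276765 bp away. The Mad gene and the Max-like partner gene were therefore at opposite ends of the count within this group, with 5 IDR summits against 0.

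The Mondo gene mml-1 (WBGene00003378, minus strand of chromosome III, 7370130 to 7374731) had a single IDR summit, 1801 bp upstream, with a pooled signal of 34.5 and rank 585. Its replicate signals were 6.6, 7.3 and 21.9, at ranks 1023, 8141 and 395. The peak was within the strongest 705 in replicate 3 only and lay far down the list of replicate 2. The 2 relaxed pooled peaks that followed in the region had signals of 9.3 each, 427 and 873 bp upstream. The sequence is shown for its E-box, which lies 25.5 bp from the summit.
mml-1, 1801 bp upstream, chrIII:7376482-7376582, minus strand: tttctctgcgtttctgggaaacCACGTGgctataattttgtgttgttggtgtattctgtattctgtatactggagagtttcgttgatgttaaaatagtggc

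The Mlx-like partner gene mxl-2 (WBGene00003510, minus strand of chromosome III, 186949 to 188131) had no IDR summit. Its region reaches 706 bp upstream, to the gene ubc-20, and held 1 summit of the relaxed pooled list, 623 bp upstream, with a signal of 10.3 at rank 12810 of 23218. Replicate 1 had a summit 462 bp upstream (signal 2.9, rank 8529 of 15286) and replicate 3 one 598 bp upstream (4.7, rank 15899 of 30000), and replicate 2 had none. These are middle ranks of lists that keep background. In the relaxed pooled list 6 of the 7 genes had a summit, against 55.6% of all genes. The share was 33.4% for genes with regions of 1000 to 2000 bp. It was 91.3% for regions of at least 10000 bp, the length of 4 of the 7.

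The Max-like gene mxl-3 (WBGene00003511, minus strand of chromosome X, 13349639 to 13350804) had its 4 summits upstream, the strongest of them the farthest away. That summit lay 7968 bp upstream, with a pooled signal of 90.9 and rank 47. Replicate signals were 17.2, 34.6 and 48.4 at ranks 69, 48 and 46, so it was within the strongest 69 peaks of all 3 libraries. The peak 2922 bp upstream (61.3, rank 150) had signals of 12.4, 9.3 and 39.1 at ranks 187, 3761 and 93, with replicate 2 the low one. The peak 5850 bp upstream (42.1, rank 369) had signals of 5.3, 10.4 and 26.5 at ranks 2072, 2375 and 251. The peak nearest to the gene, 221 bp upstream (37.3, rank 501), had signals of 7.1, 13.8 and 18.1 at ranks 848, 792 and 591. For the peaks at 5850 and 221 bp, replicate 3 alone placed the peak within its strongest 705. No other protein-coding gene's region holds these 4 summits, and no protein-coding gene lies within 10000 bp upstream of mxl-3. The strongest summit is shown because it is flanked by a pair of E-boxes.
mxl-3, 7968 bp upstream, chrX:13358722-13358822, minus strand: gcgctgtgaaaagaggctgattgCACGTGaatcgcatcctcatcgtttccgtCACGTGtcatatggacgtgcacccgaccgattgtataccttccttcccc

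The TFEB relative hlh-30 (WBGene00020930, minus strand of chromosome IV, 4014793 to 4034951) has 13 annotated transcripts with 10 different 5′ ends. Its IDR summits differed in their nearest 5′ end, and no background was counted for distances to internal 5′ ends. The stronger summit lay inside the gene, in an intron 14865 bp downstream of the outermost 5′ end and 1042 bp upstream of an internal one, with a pooled signal of 51.9 and rank 222. Replicate signals were 12.8, 17.6 and 19.9 at ranks 173, 344 and 486, so all 3 libraries had it within their strongest 705 peaks. The other summit lay 207 bp upstream of the outermost 5′ end (32.7, rank 656), with signals of 7.7, 6.2 and 20.0 at ranks 697, 12822 and 479. Replicate 2 placed it low. This summit also lies in the region of F35F11.2, a gene of the opposite strand whose 5′ end is 5126 bp away. The strongest peak of the region in replicate 3 was neither of these. It lay 6463 bp inside the gene (signal 25.1, rank 285) and corresponds to a relaxed pooled peak at 6502 bp (rank 932), which lies 322 bp from another internal 5′ end and is not in the IDR list. The intron sequence is shown for the contrast with the E-boxes above.
hlh-30, intron, chrIV:4020036-4020136, minus strand: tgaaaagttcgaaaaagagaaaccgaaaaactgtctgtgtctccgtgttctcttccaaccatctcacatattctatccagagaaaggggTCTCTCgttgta

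The AP-4 relative hlh-11 (WBGene00001955, plus strand of chromosome III, 9619711 to 9626529) carried the highest peak of the group, 402 bp upstream, with a pooled signal of 95.3 and rank 38. Replicate signals were 30.3, 24.8 and 48.9 at ranks 13, 128 and 45. The second peak, 196 bp upstream (35.7, rank 550), had a summit 206 bp from the first and shared 184 bp with it, so they are not independent. In replicate 3 a single peak (48.9, rank 45) held both summits, while replicates 1 and 2 listed separate peaks for the second with signals of 8.0 and 10.7 at ranks 604 and 2151. Both summits also lie in the region of hcp-3, a gene of the opposite strand, whose 5′ end is 2839 and 3045 bp away. The sequence of the stronger summit is shown for its GA repeats.
hlh-11, 402 bp upstream, chrIII:9619259-9619359, plus strand: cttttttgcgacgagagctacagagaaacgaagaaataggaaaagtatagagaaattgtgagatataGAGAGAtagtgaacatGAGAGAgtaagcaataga

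The replicates differed in how many of the 14 peaks stood among their own strongest 705. Replicate 1 held 9, replicate 2 held 7 and replicate 3 held 14, a mean of 10 ± 3.61 (SD, n = 3). Over all 705 IDR peaks these shares were 54.3%, 57.2% and 74.9%, and replicate 3 was also the highest there. All 3 top lists held 6 of the 14 (28.1% of all IDR peaks), at least 2 held 10 (64.3%), and none of the 14 was missing from every list. In replicate 3 the same peak held both hlh-11 summits and was counted for each. The hlh-11 peak at 196 bp is among the 10 only through this shared peak. The 6 peaks were the hlh-11 peak at 402 bp, the mdl-1 peaks at 95, 4527 and 5684 bp, the mxl-3 peak at 7968 bp and the hlh-30 intron peak. They belong to 4 genes, and the same 4 genes hold the peaks found in at least 2 top lists. An IDR summit found in all 3 top lists was present in the region of 1.06% of all genes, and one in at least 2 of them in 2.42%. Among genes with regions of at least 10000 bp, as these 4 have, the shares were 3.32% and 6.56%. The mml-1 peak was in the top list of replicate 3 only. Each replicate's top list, counted on its own, had a summit in the regions of 4, 4 and 5 of the 7 genes, against 3.52%, 3.75% and 3.63% of all genes. For genes with regions of at least 10000 bp the shares were 10.2%, 9.88% and 10.2%. Replicates 1, 2 and 3 contributed to the IDR list, so these counts do not stand apart from it.

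**Figure D3:**
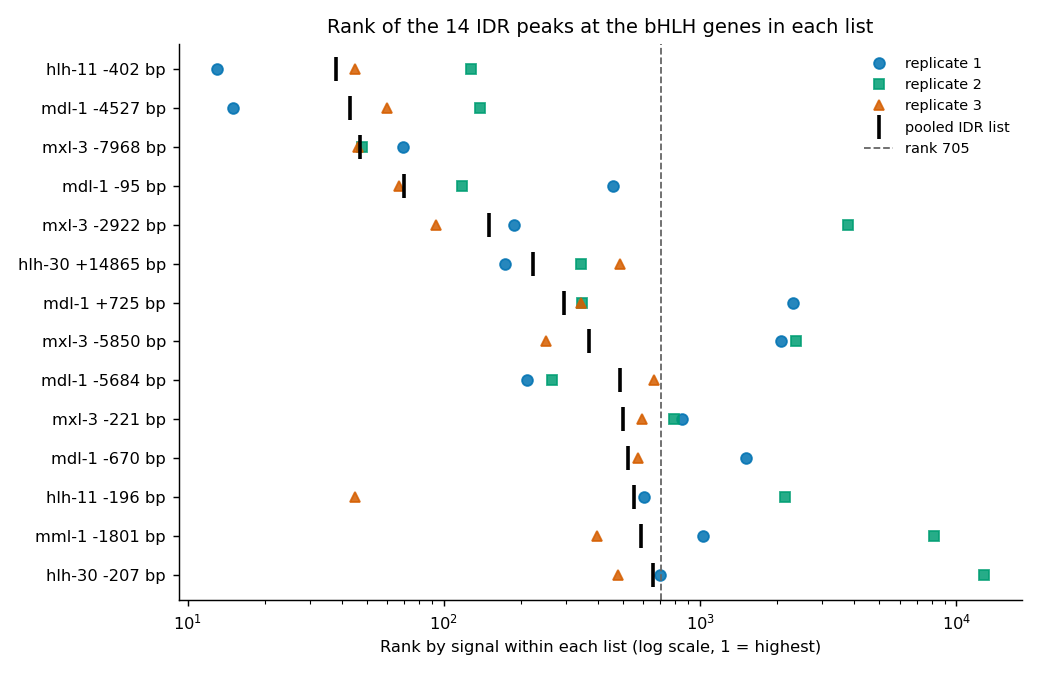
Rank by signal of the 14 IDR peaks of the 5 genes (rows, named by gene and distance of the summit from the outermost 5′ end) in the list of each replicate and in the pooled IDR list (x axis, log scale, 1 is the highest). The dashed line marks rank 705; all 14 triangles of replicate 3 lie left of it, against 9 points of replicate 1 and 7 of replicate 2, and the mdl-1 peak at 670 bp has no point for replicate 2. Both hlh-11 triangles stand for the same peak of replicate 3.

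The 14 peaks covered most of the ranks of the IDR list. Their median signal was 44.3, against 42.9 over all 705 peaks, and 7 of the 14 lay above the median of the list. Ranks ran from 38 to 656. The lowest IDR peak and the highest pooled peak outside the list both had a signal of 31.5, and the strongest pooled peak below that limit was at rank 912 for mxl-3 (28.4, 4352 bp upstream), at rank 932 for hlh-30 and at rank 1418 for mdl-1 (23.1, 3095 bp upstream). By position, 12 of the 14 summits lay upstream of the outermost 5′ end and 2 lay in introns. Of the 12, 6 were within 1000 bp of it and 6 farther away. The regions of 2 or more genes held 7 of the 14 summits, compared with 27.8% of all IDR summits.

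The E-box core CACGTG, the sequence that dimers of this network bind, was present in 9 of the 14 peaks, where 15.6% of all 705 IDR peaks hold it. The letters read the same on both strands. The peaks were 4 of the 5 at mdl-1, 3 of the 4 at mxl-3, that of mml-1 and 1 of the 2 at hlh-11, and neither peak of hlh-30 held it. In all there were 12 copies, between 4.5 and 164.5 bp from the summit with a median of 77.5 bp. Within 50 bp of the summit the core was present at 4 of the 14 summits (6.52% of all IDR summits), and within 100 bp at 7 (10.4%). At least 2 copies were present in 3 of the 14 peaks (1.70% of all), 1 each at mxl-3, mdl-1 and mml-1. From 250 bp before to 50 bp after the 5′ end, a copy was present for 1 of the 7 genes and 5.82% of all protein-coding genes. These are shares of genes in a 300 bp window and are not comparable with the shares of peaks above. The rule that chose the genes names no sequence, but the frequency of this core at EGL-27 summits was known, and a match of letters does not show that any factor binds there.

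Copies of the core were also unevenly spread among the 7 regions. There were 13 in the region of mdl-1 (1.23 per kb), 9 at mxl-3 (0.806 per kb), 3 at mml-1 (0.389), 6 at hlh-30 (0.235), 2 at hlh-11 (0.199) and none at mxl-1 and mxl-2, compared with 0.177 per kb of nuclear genome. The 2 genes with the most EGL-27 summits, mdl-1 and mxl-3, also had the densest E-box cores among these 7. Inside the IDR peaks of the regions the density was 2.41 per kb, against 0.453 per kb inside all nuclear IDR peaks. In the parts of the regions outside these peaks it was 0.333 per kb. Both values for the regions pool the genes, and the value outside the peaks was not computed gene by gene. The regions of mxl-1 and mxl-2, without copies or IDR peaks, enter only that value, as does most of the long hlh-30 region. The pooled 0.333 per kb therefore does not describe mdl-1 and mxl-3, where the core was densest. Of the 12 copies inside the peaks, 5 were at mdl-1, 4 at mxl-3, 2 at mml-1 and 1 at hlh-11. None of the 6 copies at hlh-30 lay inside its peaks. Most of the E-box peaks were on chromosome X, at 7 of 9 peaks, against 2 of 5 on other chromosomes. Over all IDR peaks the shares on X and on the other chromosomes were 16.6% and 15.3%, and the core is rarer in the sequence of X (0.139 per kb) than in that of the other chromosomes (0.185 per kb).

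**Figure D4:**
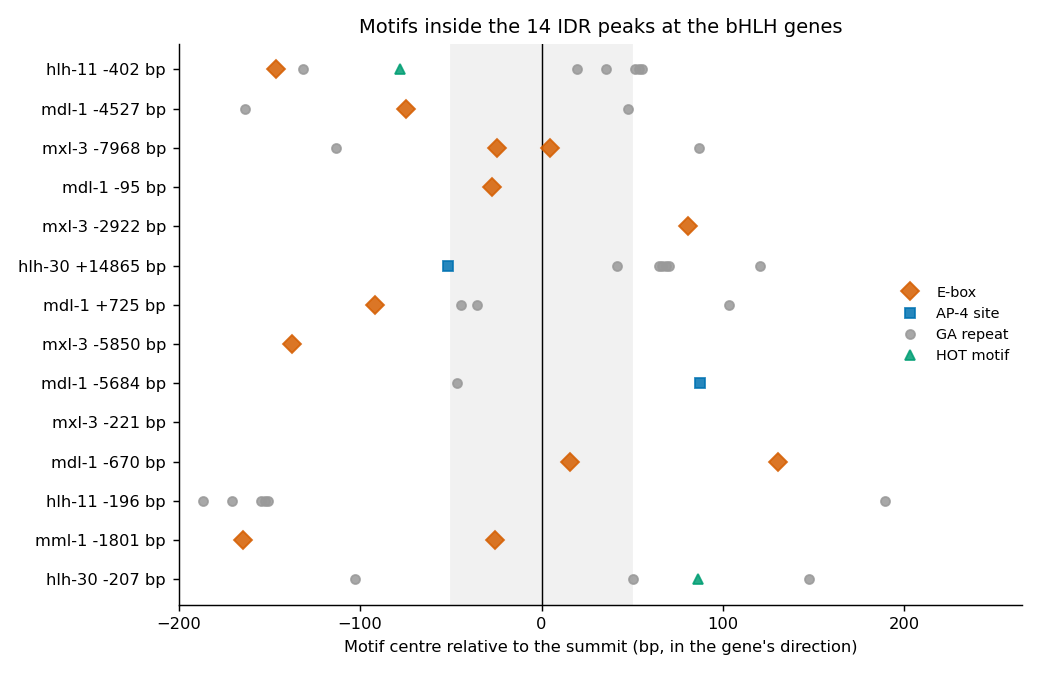
Position of 4 motifs in the 14 IDR peaks, as distance of the motif centre from the summit in bp, in the direction of the gene (x axis); rows are peaks in order of pooled signal and the shaded band is 50 bp to each side. Orange diamonds are E-box cores (12 copies in 9 peaks), blue squares AP-4 sites, grey circles GA repeats and green triangles the motif of highly occupied (HOT) regions.

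By the number of peaks that held them, GA repeats were nearly as frequent as the E-box core (8 against 9). Within 50 bp of the summit they were at 5 summits against 4. The AP-4 core and the HOT motif were rarer. GAGAGA, searched on both strands, lay within 50 bp of 5 of the 14 summits (41.3% of all) and in 8 of the 14 peaks (70.6% of all). The GA copies were most numerous in the hlh-30 intron peak and in both hlh-11 peaks, which overlap, at 6 in each. Overlapping matches in a run of GA were counted separately. CTGCGTCTC, which earlier work found in worm DNA bound by many factors (HOT regions) and which was searched on both strands, was at 0 of 14 summits within 50 bp (15.2% of all) and in 2 of the 14 peaks (24.4% of all), 1 at hlh-11 and 1 at hlh-30. The AP-4 core CAGCTG was in 2 of the 14 peaks (10.6% of all), 1 at mdl-1 and 1 at hlh-30, and in neither peak of hlh-11. The median GC content was 45.0% within 50 bp of the 14 summits, against 48.5% over all nuclear IDR summits.

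Peaks also lay at some genes that act with or downstream of the network. Of 28 genes of lysosomal lipid breakdown, autophagy, TOR signalling and linked transcription factors, 6 had an IDR summit in their region (21.4%, where 3.86% of all genes do), and 22 had none. The share was 9.78% among all genes with regions of at least 10000 bp, and the comparison was not matched for region length. The highest peak of the 28 genes was at skn-1, the Nrf-like stress factor (signal 62.9, rank 139, in an intron). It was followed by the autophagy genes lgg-1 (47.9, 840 bp upstream) and lgg-2 (44.4, 342 bp upstream), both relatives of yeast Atg8, and by the autophagy kinase gene unc-51 (37.4, 1381 bp upstream). The nuclear receptor gene nhr-49 (35.0) and the FOXO gene daf-16 (34.9) completed the 6. Of the 8 summits of these genes, 5 were in at least 2 top lists (64.3% of all IDR peaks). CACGTG was in the peak of 1, at nhr-49 (15.6% of all IDR peaks). The named summits of skn-1, lgg-1, lgg-2 and unc-51 were in at least 2 top lists. That of nhr-49 was in 1, and the named one of daf-16 was in none. None of the lysosomal lipase genes lipl-1 to lipl-5 had an IDR summit. Since 3.86% of all genes have one, none among so few genes is common and is no result about them. Among 34 other bHLH genes, 1 had a summit (2.94%), the hypoxia factor gene hif-1 (112.2, rank 15, 1956 bp upstream), whose peak was in all 3 top lists and held the E-box core. The pathway and bHLH lists share 1 gene, which had no IDR summit. Both lists were chosen with results of these data known, and no test was made on them.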

How the data were processed

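ChIP-seq peak lists against EGL-27-GFP in L1 larvae were used, with 3 biological replicates of 1 group. Per the labels, lists were made in ce10 and ce11, and only the ce11 lists were used. The authors deposited an IDR-thresholded list of 705 peaks, a relaxed pooled list of 23218 peaks and relaxed lists of 15286, 30000 and 30000 peaks for replicates 1, 2 and 3. The sources used here name no aligner, peak caller or IDR threshold. The deposited signal value of each peak was the authors' own and was used only to rank peaks within a list. The deposited -log10 q-value was not used, because the top values are tied. Every list was made against a control alignment that was not used here, per the library notes, and read depth is unknown. No untagged sample was used here, and what such a sample gives at these genes was not tested.

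Genes and regions came from Ensembl release 115 (WBcel235), and sequences from the RefSeq WBcel235 genome, both in ce11 coordinates, 1-based. Summits came from the lists. A replicate recovered an IDR peak when a peak among its 705 strongest held the IDR summit. Motifs were searched on both strands in the 101 bases around the summit and in the whole peak. Backgrounds were counted over all 19973 nuclear protein-coding genes or all 705 IDR peaks. Python 3.11.15 and matplotlib 3.10.9 were used, and the region rule was tested on simulated data. The genes and lists were chosen with earlier results of these data known. The genes named were the 7, up to 6 genes per further list, genes sharing a summit with them, and egl-27. Genes that only bound a region, and those named for having 4 or more summits, were chosen after their values were seen. No p-value was computed.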

Additional observations from a re-analysis of the deposited data

How the results depend on the processing

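The count of genes with an IDR summit was 5 of 7 with upstream limits of 2000 and 5000 bp (3.06% and 3.59% of all genes), without a stop at neighbouring genes (8.21%), with a stop at any annotated gene other than piRNA genes (3.00%), with any overlap of the peak (4.09%) and with only the nearest 5′ end (2.65%). It was 4 among the 352 IDR peaks of highest signal (1.93%) and 4 without replicate 1, 2 or 3 (1.65%, 1.62% and 1.30%). The number of summits depended more on the rule. From 14 it fell to 9 with a 2000 bp limit and 11 with a 5000 bp limit, and the summits lost were all at mdl-1 and mxl-3. It was 10 with only the nearest 5′ end, 9 with a stop at any annotated gene, and 7 among the 352 peaks of highest signal. Without a stop at neighbouring genes it stayed at 14, and with any overlap of the peak it was 15. Without each replicate, which keeps IDR peaks in both other top lists, it was 6 to 9. Among summits that no other gene's region holds, an alternative chosen after seeing the data, it was 7. Peaks in at least 2 top lists numbered 10, and 6 to 9 without each replicate. CACGTG was near 4 summits within 50 bp, 7 within 100 bp and in 9 whole peaks. It was near 2 summits without each replicate and in 2 peaks off chromosome X, chosen after seeing the data. The cause was not tested. No paired analysis was possible because the 3 replicates form a single group. Read depth is unknown, so a missing summit does not show that EGL-27 is absent.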

Other observations

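The 8 genes with at least 4 IDR summits in their region, named after their values were seen, were egl-27 with 7, mdl-1 and zfp-1 with 5 each, and mxl-3, pqn-41, sma-9, din-1 and R03E9.2 with 4 each. The 4 summits of R03E9.2 are the upstream summits of mdl-1. Among these genes mdl-1 had the shortest region, at 10598 bp, and mxl-3 the next, at 11166 bp, while the others had 12353 to 33930 bp. The peaks of egl-27 lie in the gene that was tagged and reached a signal of 169.3, and the copies on the transgene and at the native locus cannot be told apart.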
